A study of Mus musculus with 13 samples.

Results

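The wells described here are 242 of the 450 wells of adult proprioceptors with at least 2000 detected genes, left out of the study's annotation of neurons, and they are compared with the 208 wells that were kept. The kept wells include some outside the study's numbered clusters, by its account non-proprioceptor classes or small clusters. The adult plates held 480 wells in all and the whole series 1248 wells. Each well received a single tdTomato-positive neuron, dissociated from dorsal root ganglia of mice of genotype PV:Cre+/-;Rx3:Flp+/-;Ai65+/-, in which the red reporter tdTomato is switched on only where Cre, driven by parvalbumin, and Flp, driven by Runx3, have both been active. There was no untreated or mutant group, since the adult mice, of either sex, all carried these alleles, as did those of p12 (postnatal day 12) used for comparison. RNA was counted as Unique Molecular Identifiers (UMIs), 1 for each captured transcript molecule. The 5 adult plates are called replicates 1 to 5, and their left-out wells numbered 40, 41, 44, 48 and 69 against 52, 53, 43, 40 and 20 kept wells. The study sampled the adult neurons in fewer experiments than there are plates, so some plates share an experiment, and perhaps animals. Which plates do is not named, so plates stand for replicates here and the p-values measure the spread between plates only. The same 96 well barcodes were used on every plate.

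In a ganglion each sensory neuron body is wrapped by satellite glial cells, which buffer potassium, take up glutamate and secrete lipoproteins, and its axon is ensheathed by Schwann cells, the large and fast conducting axons of proprioceptors by myelinating ones. Enzymatic digestion has to free the neuron from this tight sheath, and glial membrane or whole glial cells can stay on it. Apoe (apolipoprotein E, a lipid carrier) and Fabp7 (a brain-type fatty acid binding protein) are markers of satellite glia, and Mbp (myelin basic protein) is a component of myelin. The comparison asks which other transcripts came along in the wells that were left out for their glial RNA, and what these wells held of the neuron.

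By the study's account wells were left out for their glial transcripts, Apoe and myelin genes, so the levels of Apoe and Mbp are a description with no test. The limits in its methods lead to other sides than the deposited annotation, which was used here. Levels are in CPM, counts of UMIs per 1e6 UMIs of the well or of the summed wells. Under a limit of 20 CPM of Apoe, as given there, only 2 of the 208 kept wells would have stayed. Each of the 208 kept wells held less than 2000 CPM of Apoe, a limit found after the values were seen, and 224 of the 242 left-out wells held more. The other 18 left-out wells lay under this limit, so it does not by itself separate the sides. The 3 kept wells with most Apoe held 1967, 1918 and 1904 CPM, and the 3 left-out wells just over the limit held 2034, 2063 and 2168 CPM. The highest Apoe among the 18 left-out wells under it was 1899, 1786 and 1658 CPM. Wells thus lay close on both sides of the Apoe limit.

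**Figure D1:**
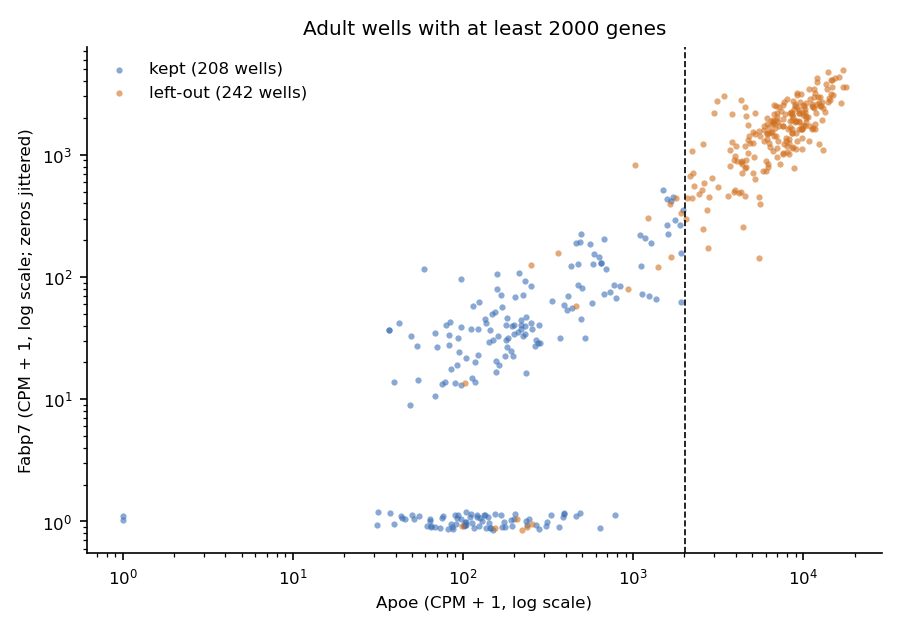
Apoe (horizontal axis) and Fabp7 (vertical axis) in each of the 450 adult wells, both as CPM + 1 on log scales, with kept wells in blue, left-out wells in orange, and wells with no Fabp7 UMI spread slightly around 1. The dashed line stands at 2000 CPM of Apoe, with all 208 kept and 18 left-out wells to its left, and the median Fabp7 is 26.1 CPM in kept wells and 1707 CPM in the left-out wells to its right.

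In the UMIs summed over a side of a plate, Apoe stood at 199, 291, 298, 269 and 597 CPM in kept wells of replicates 1 to 5 and at 6616, 5548, 5634, 8239 and 9002 CPM in left-out wells. Replicate 5 had the highest Apoe on both sides and the fewest kept wells. Its lowest kept well still held 331 CPM, against 0 to 44.2 CPM for the lowest kept well of the other plates. Mbp stood at 6.21, 8.92, 7.65, 2.51 and 12.6 CPM in kept wells and at 60.6, 37.9, 47.9, 59.1 and 65.7 CPM in left-out wells. The summed sides did not overlap for either gene. An Mbp UMI was held by 169 of the 242 left-out wells and 50 of the 208 kept wells. Single wells overlapped for Mbp, at 0 to 245 CPM in kept and 0 to 335 CPM in left-out wells.

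The promoter sequences of 3 genes are shown because they belong to the gene that set the main limit (Apoe) and to 2 abundant transcripts that came along with it, Fabp7 and Gpm6b, a membrane glycoprotein of neural cells. Apoe lies on chromosome 7 (19696109 to 19699188, minus strand), Fabp7 on chromosome 10 (57784881 to 57788450, plus strand) and Gpm6b on chromosome X (166238911 to 166388988, plus strand) of GRCm38 in GENCODE. The windows come from RefSeq (GRCm38.p6), whose starts for Fabp7 and Gpm6b lie 42 and 32 bases inside these genes, and the bases inside were left out. They are chr7:19699189-19699438 on the minus strand (250 bases) and chr10:57784673-57784880 (208 bases) and chrX:166238693-166238910 (218 bases) on the plus strand. Capitals mark ACAAAG or its reverse complement CTTTGT, the core bound by SOX proteins such as the glial regulator Sox10. The printed strand is that of the gene, 5′ to 3′.
Apoe: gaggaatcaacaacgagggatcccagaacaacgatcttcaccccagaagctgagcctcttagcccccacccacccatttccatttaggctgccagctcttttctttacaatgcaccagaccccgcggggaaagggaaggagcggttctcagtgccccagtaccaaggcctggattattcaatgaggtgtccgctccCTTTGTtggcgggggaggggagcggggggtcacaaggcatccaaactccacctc
Fabp7: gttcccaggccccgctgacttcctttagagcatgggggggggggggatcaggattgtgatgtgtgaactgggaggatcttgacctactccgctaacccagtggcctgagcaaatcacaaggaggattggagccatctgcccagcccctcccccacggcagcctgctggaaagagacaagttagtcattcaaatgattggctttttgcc
Gpm6b: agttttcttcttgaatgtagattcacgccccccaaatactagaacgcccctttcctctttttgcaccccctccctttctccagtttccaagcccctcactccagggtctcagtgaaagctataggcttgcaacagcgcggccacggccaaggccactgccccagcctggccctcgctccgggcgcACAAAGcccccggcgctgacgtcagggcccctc
Apoe and Gpm6b held 1 match each, beginning 54 and 33 bases before the gene start given here, and the Fabp7 window held none. The same letters were found on either strand in 18.6% of the 27025 genes with a promoter window in the table, read over 250 bases before each RefSeq start, so a match is common and is only a description.

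Left-out wells held fewer UMIs and fewer genes than kept wells on each of the 5 plates. The mean well held 25979.8, 22544, 41792, 33133 and 38409.7 UMIs on the left-out side of replicates 1 to 5 and 37155, 33828, 54736, 59682 and 39626 UMIs on the kept side. The difference was −12634 ± 9056 UMIs (SD, n = 5 plates), or −28.1% of the kept mean, and it stood at −1216 UMIs on replicate 5. Detected genes stood at 6722 ± 668 in kept and 6116 ± 605 per well in left-out wells (mean ± SD over plates). An exact two-sided sign-flip test over plates gave p = 0.0625 for both, the smallest value that 5 plates allow, so this design cannot reach 0.05. UMIs of 23 pan-neuronal genes stood at 1988 ± 483 in kept and 1195 ± 289.7 per well in left-out wells, lower on 5 of 5 plates (exact sign-flip p = 0.0625). UMIs of 25 satellite glia genes stood at 194 ± 60.9 and 528 ± 169 per well, a description with no test since Apoe, which chose the wells, is among them and made up most of the difference. Without Apoe the list stood at 179 ± 56.9 and 297 ± 83.5 UMIs per well, a difference of 118 ± 63.9 that was positive on 5 of 5 plates, at 229 on replicate 5 and 73.9 to 112 on the others. Whether less RNA per neuron or a lower capture lay behind the smaller totals was not tested.

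Across all genes, the summed left-out wells were compared with the summed kept wells of the same plate. Of 11599 genes tested with edgeR's quasi-likelihood test, 1020 were called higher in left-out wells (8.79%) and 738 lower (6.36%) at a Benjamini-Hochberg adjusted p under 0.05. With library totals in place of TMM the split was 1118 higher and 466 lower. Scaled to the pan-neuronal genes, which moved the median gene from −0.03 to 0.27 on the log2 scale, it was 3367 higher and 90 lower. Since the wells were chosen on glial transcripts among the same UMIs, a call says that a gene went along with this choice over plates, and is no independent evidence of glia. The rises were much larger than the falls, with 653 genes called higher and 68 called lower by more than 1 log2 unit. Together these 653 genes took 0.440% to 0.554% of the UMIs of kept wells and 2.35% to 3.44% of those of left-out wells, a description since they were picked by this difference. On every plate the rest of the UMIs, by far the larger part, came from other genes.

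**Figure D2:**
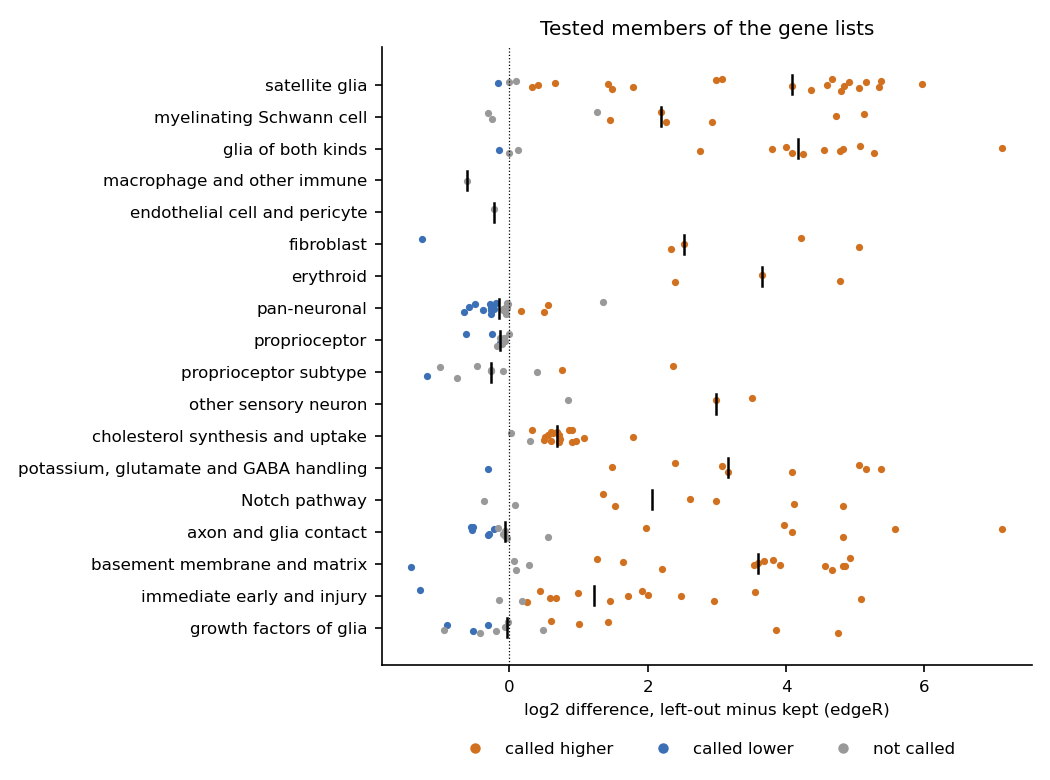
The log2 difference between left-out and kept wells (horizontal axis, edgeR) for each tested member of the 18 gene lists (rows), with members called higher in orange, called lower in blue and not called in grey, and the median of each list as a black bar. Medians stood at 4.08 for satellite glia and 4.17 for genes of both glial kinds, and at −0.15 for pan-neuronal and −0.14 for proprioceptor genes, beside −0.03 for all genes.

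Satellite glia genes rose together. Of the 25 genes of this list Apoe chose the wells and Gfap, a filament protein of reactive glia, had no UMI in any adult well. Of the other 23, all tested, 20 rose, 1 fell and 2 were not called, with a median log2 difference of 4.08 beside −0.03 over all genes. Fabp7 stood at 25.9, 44.1, 47.2, 35.2 and 116 CPM in kept wells and at 1539.7, 1383, 1048, 1454 and 2214 CPM in left-out wells of replicates 1 to 5. The sides lay far apart on every plate, by a log2 difference of 4.91 ± 0.13 (SE, adjusted p = 4.65e-15). The other abundant members of the list rose less. Dbi, an acyl-CoA binding protein, rose from 337 to 673 CPM over the kept plates to 1214 to 2291 CPM over the left-out plates (1.79 ± 0.06, adjusted p = 7.41e-14). Cst3, the secreted protease inhibitor cystatin C, stood at 679.6 to 1136 CPM in kept wells and rose by only 0.42 ± 0.05, and Aldoc, an enzyme of glycolysis, rose by 0.33 ± 0.05, and both were also abundant in kept wells. Mt3, a metallothionein, was the member called lower (−0.17 ± 0.05, adjusted p = 0.0401), and this call was lost without any 1 of replicates 1 to 4 and its sign turned under pan-neuronal scaling (0.13).

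Genes by which satellite cells handle potassium and transmitter followed the same pattern. Of the 13 genes of this list 9 were tested, 8 rose and 1 fell (median 3.16). Kcnj10, the inward rectifier potassium channel Kir4.1 that marks satellite cells, stood at 0.518, 1.12, 1.27, 1.68 and 1.26 CPM in kept wells and at 54.9, 46.5, 37.0, 51.6 and 41.9 CPM in left-out wells (5.16 ± 0.25). It had a UMI in 154 of 242 left-out wells and in 9 of 208 kept wells. Glul, glutamine synthetase, stood at 26.9, 26.8, 29.7, 27.6 and 32.8 against 83.7, 90.9, 62.5, 95.6 and 90.2 CPM (1.49 ± 0.12). Slc12a2, a chloride importer, rose by 3.16 ± 0.20. The glutamate transporter Slc1a3 (3.07 ± 0.31) and the gap junction protein Gja1 (4.08 ± 0.33) also rose, whereas the transporters Slc1a2, Slc6a11 and Slc6a13 had too few UMIs to be tested. The member that fell, Kcnk1 (−0.31 ± 0.06, and −0.02 and not called under pan-neuronal scaling), is a background potassium channel present at 228 to 332 CPM in kept wells.

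**Figure D3:**
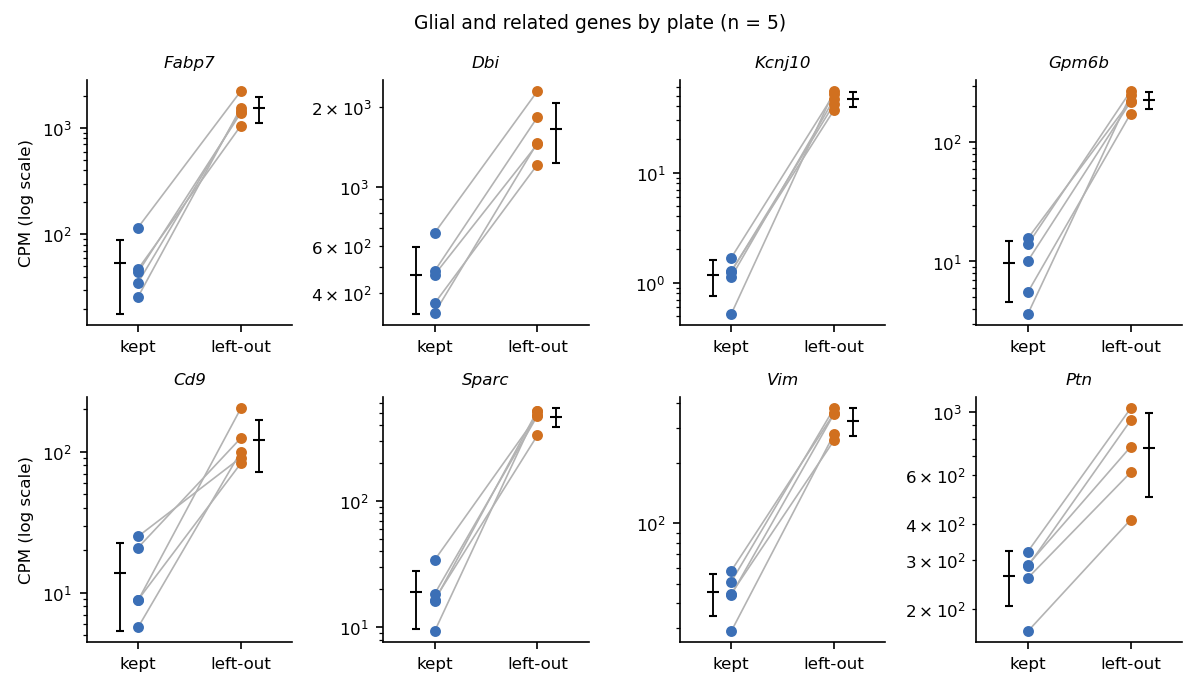
Summed CPM (vertical axes, log scale) of 8 genes in the kept (blue) and left-out (orange) wells of each adult plate, with grey lines joining the sides of a plate and black marks giving mean ± SD (n = 5). All 5 plates rise in each panel and the sides overlap in none, for example Fabp7 from 25.9 to 116 CPM in kept wells to 1048 to 2214 CPM in left-out wells.

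Myelin genes rose as well, but from a list of which many members had few UMIs. Of 21 myelinating Schwann cell genes 2, among them Mbp, are named in the study's filters on wells and were not tested. Of the rest only 9 passed the filter on low counts, of which 6 rose and 3 were not called (median 2.19). Cd9, a tetraspanin, stood at 5.69, 25.1, 8.92, 20.9 and 8.83 CPM in kept and at 100.1, 90.9, 82.7, 125 and 203 CPM in left-out wells (2.93 ± 0.22, adjusted p = 1.53e-08). The sides did not overlap. Pmp22, peripheral myelin protein 22, rose by 1.45 ± 0.19. Mal, Cnp and Egr2, the master regulator of myelination, rose by 4.72 ± 0.35, 2.27 ± 0.19 and 2.19 ± 0.47. Egr2 reached only 3.40 to 9.62 CPM in left-out wells and was not called by DESeq2. Pmp2 had no UMI, and Prx and Mag, 2 proteins of myelinating Schwann cells, held 10 and 7 UMIs in all 242 left-out wells and 9 and 3 UMIs in kept wells.

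Genes shared by both glial kinds had a median of 4.17, with 11 of 14 members called higher, 1 lower and 2 not called. Sox10, the transcription factor that keeps glial identity, stood at 0.518, 1.67, 0.850, 1.26 and 0 CPM in kept and at 33.7, 29.2, 23.9, 30.8 and 30.9 CPM in left-out wells (4.78 ± 0.30). Gpm6b stood at 3.62, 15.6, 5.52, 10.1 and 13.9 against 249, 224, 174, 219 and 269 CPM (4.55 ± 0.16). Vim, an intermediate filament, rose by 2.75 ± 0.09 from 29.0 to 58.0 CPM over the kept plates. S100b, often used as a glial marker, behaved differently. It stood at 3575 to 4169.6 CPM in kept wells and at 3192 to 3910.3 CPM in left-out wells and was called lower (−0.15 ± 0.04, adjusted p = 0.0122), a sign that turned under pan-neuronal scaling (0.15) and a call lost without replicate 1 or 3. Cd59a, an inhibitor of complement at 314 to 351 CPM in kept wells, was not called (log2 difference 0.29 under pan-neuronal scaling, where the sign turned). Both genes were abundant on both sides.

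Basement membrane and matrix genes, the coat that glial cells lay down around the neuron, rose in 13 of 17 tested members, 1 fell and 3 were not called (median 3.60). Sparc, a secreted matrix protein, stood at 9.32, 16.2, 16.6, 18.4 and 34.1 CPM in kept and at 517, 517, 330.1, 472 and 475 CPM in left-out wells (4.66 ± 0.14). Type IV collagen Col4a1 (4.57 ± 0.37) and the laminin chains Lama4 (3.91 ± 0.40), Lamb1 (3.54 ± 0.25) and Lamc1 (2.21 ± 0.25) rose, and so did Dag1, the laminin receptor dystroglycan (1.64 ± 0.14). The integrin subunits Itga6 (0.28 ± 0.13) and Itgb1 (0.10 ± 0.10) were not called. Fn1, fibronectin, fell by 1.42 on the log2 scale, from 11.9, 37.9, 15.7, 21.4 and 16.4 CPM in kept wells to 2.89, 9.74, 9.79, 8.17 and 6.41 CPM in left-out wells.

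Contact and growth factor genes moved in both directions. Of 21 axon and glia contact genes 18 were tested, 6 rose and 6 fell (median −0.06), whereas 8 rose and 2 fell under pan-neuronal scaling (median 0.24). Those that rose were Lgi4, Erbb2, Erbb3, Adgrg6, Axl and Mertk, a ligand secreted by Schwann cells and receptors on glia, with Erbb3 at 2.59, 0, 0.850, 0 and 1.26 CPM in kept and 26.9, 21.6, 9.24, 12.6 and 11.7 CPM in left-out wells (4.09 ± 0.45). Those that fell were Nrg1, Gas6, Cntn1, Nrcam, Adam22 and Adam23, among them Nrg1, the axonal ligand of the ErbB receptors, from 225 to 316 CPM in kept to 157 to 288 CPM in left-out wells (−0.31 ± 0.06, but −0.01 and not called under that scaling), Adam23 (−0.54 ± 0.07) and Gas6 (−0.53 ± 0.08). Cntn1 was called lower by only 0.22 ± 0.07, its call was lost without replicate 1, 4 or 5, and it stood at 0.08 under the same scaling. Of 21 growth factors that glia make or receive 14 were tested, 5 rose and 3 fell (median −0.04). Ptn, pleiotrophin, stood at 284, 320.2, 258, 287 and 167 CPM in kept and at 934, 1031, 611, 753 and 415 CPM in left-out wells (1.43 ± 0.06), and Dhh, the Schwann cell signal desert hedgehog, rose from 1.70 CPM or less to 17.4 to 34.6 CPM (4.75 ± 0.37). Mdk, midkine, rose by 3.86 ± 0.26, Vegfa and Bdnf were also called higher, and Tgfb1 fell by 0.91 on the log2 scale, beside Gas6 and Nrg1. Clu, clusterin, at 1063 to 1194 CPM in kept wells, was not called (−0.02 ± 0.05, and 0.28 under pan-neuronal scaling).

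Genes of Notch signalling, which favours glial over neuronal fate in the forming ganglion, rose in 6 of 8 tested members of 13, with 2 not called (median 2.07). Jag1, a Notch ligand, stood at 0, 3.35, 1.27, 0.838 and 0 CPM in kept and at 59.7, 97.4, 9.24, 13.2 and 11.7 CPM in left-out wells (4.82 ± 0.37), with replicates 1 and 2 far above the other plates. The targets Hey2 (2.99 ± 0.25) and Hes1 (1.36 ± 0.09) rose, whereas Hey1 was not called (0.08 ± 0.18). Genes of cholesterol synthesis and uptake, a pathway that glia and neurons share, rose by little and in nearly the whole list, with 17 of 19 tested members called higher, 0 lower and 2 not called (median 0.69). Hmgcs1, an early enzyme of the pathway, stood at 654, 703, 152, 142 and 174 CPM in kept and at 1065, 1391, 252, 275 and 206 CPM in left-out wells (0.71 ± 0.07), and Fdft1, a later one, rose by 0.33 ± 0.08, while Pmvk stood at 0.02 ± 0.09. In replicates 3 to 5 alone 9 members of this list were called higher, and DESeq2 called 9.

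Immediate early and injury genes rose in 13 of 16 tested members, 1 fell and 2 were not called (median 1.22). Fos stood at 42.4, 25.7, 47.2, 35.6 and 41.6 CPM in kept and at 261, 138, 133, 162 and 114 CPM in left-out wells (2.01 ± 0.14, adjusted p = 2.65e-09), and Jun rose by 0.67 ± 0.10 from 82.3 to 119.9 CPM over the kept plates, Jund by 0.44 ± 0.10 and Gadd45g by 0.25 ± 0.08, the last a call lost without replicate 1, 3 or 4. Zfp36, which destabilises such transcripts, rose from 0.838 CPM or less to 10.8 to 34.6 CPM (5.09 ± 0.36). Hspb1, a heat shock protein of sensory neurons, was called lower (−1.30 ± 0.27), but against only the kept wells of the study's numbered clusters it stood at 0.70 and was called higher. The direction of Hspb1 thus depended on which kept wells were used, and DESeq2 did not call it.

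Markers of other cell types took small shares of the UMIs on both sides. Of 14 macrophage and other immune genes only Lyz2 passed the filter and it was not called (−0.62 ± 0.35). The whole list took 3.77e-04% to 0.00120% of UMIs in left-out wells and 5.58e-04% to 0.00151% in kept wells, with Aif1, C1qa and Csf1r at 0 on both sides. Of 17 endothelial and pericyte genes only Egfl7 passed and was not called (−0.23 ± 0.16). The list took 0.00333% to 0.00620% against 0.00218% to 0.00492%, in ranges that overlap. Of its endothelial markers, Ly6c1 held 35 UMIs in left-out and 0 in kept wells, Flt1 15 and 0, Cldn5 5 and 0, and Pecam1 17 and 16. Cspg4, of pericytes, had UMIs in 29 left-out and 2 kept wells. Pdgfrb had UMIs in 20 left-out wells and 1 kept well, and the part of these cells in the differences was not tested. Of 10 fibroblast genes 5 were tested, 4 rose and 1 fell. The members that rose were Col1a2 (4.21 ± 0.31), Col3a1 (5.05 ± 0.71), Apod (2.52 ± 0.28) and Gsn (2.33 ± 0.14). Of the untested members Lum held 3 UMIs in kept and 16 in left-out wells, Mgp 0 and 14, Pdgfra and Fbln1 0 and 3 each, and Col1a1 5 and 5. Dcn, decorin, fell from 14.0 to 33.6 CPM in kept to 0.962 to 18.2 CPM in left-out wells (−1.26 ± 0.22). The list took 0.0103% to 0.0179% of UMIs in left-out wells against 0.00295% to 0.00536%, and its part in the differences given here was not tested. Of 5 erythroid genes 3 were tested and all were called higher, yet Hba-a1 stood at 0, 0, 118, 2.52 and 84.9 CPM in left-out wells, 1 well held 48.7% of its UMIs, and DESeq2 called none of the 3. Haemoglobin was thus high in left-out wells of replicates 3 and 5 only.

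Left-out wells held the transcripts of the labelled neuron as well. Pvalb, the calcium buffer parvalbumin that labels proprioceptors, had UMIs in 242 of 242 left-out and 208 of 208 kept wells. It stood at 1722, 1816, 2178, 2185 and 2286 CPM in kept and at 1589.7, 1628, 2040.4, 2150.4 and 2151 CPM in left-out wells, slightly lower on each plate (−0.14 ± 0.04, adjusted p = 0.0277). This call was lost without replicate 1, 2 or 3 and with DESeq2, and the sign turned under pan-neuronal scaling (0.16). The transcription factors of the lineage were not called, with Runx3 at −0.06 ± 0.13, Etv1 at −0.14 ± 0.06, Isl1 at −0.01 ± 0.06 and Pou4f1 at −0.08 ± 0.10, nor were Whrn (−0.18 ± 0.11) and Slc17a7 (−0.11 ± 0.07), the vesicular glutamate transporter. Isl1 stood at 0.28 and was called higher under pan-neuronal scaling. Ntrk3, the neurotrophin receptor TrkC, was slightly lower (−0.25 ± 0.05), and 0.04 and not called under that scaling. Spp1, osteopontin, was clearly lower at 654, 709.7, 1287, 1227 and 907 CPM against 1093, 1196, 1752, 1689.8 and 1349 CPM (−0.63 ± 0.05, adjusted p = 8.08e-08), and remained so under that scaling (−0.34). Of the 9 proprioceptor genes 3 were thus called lower and 6 not called (median −0.14).

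**Figure D4:**
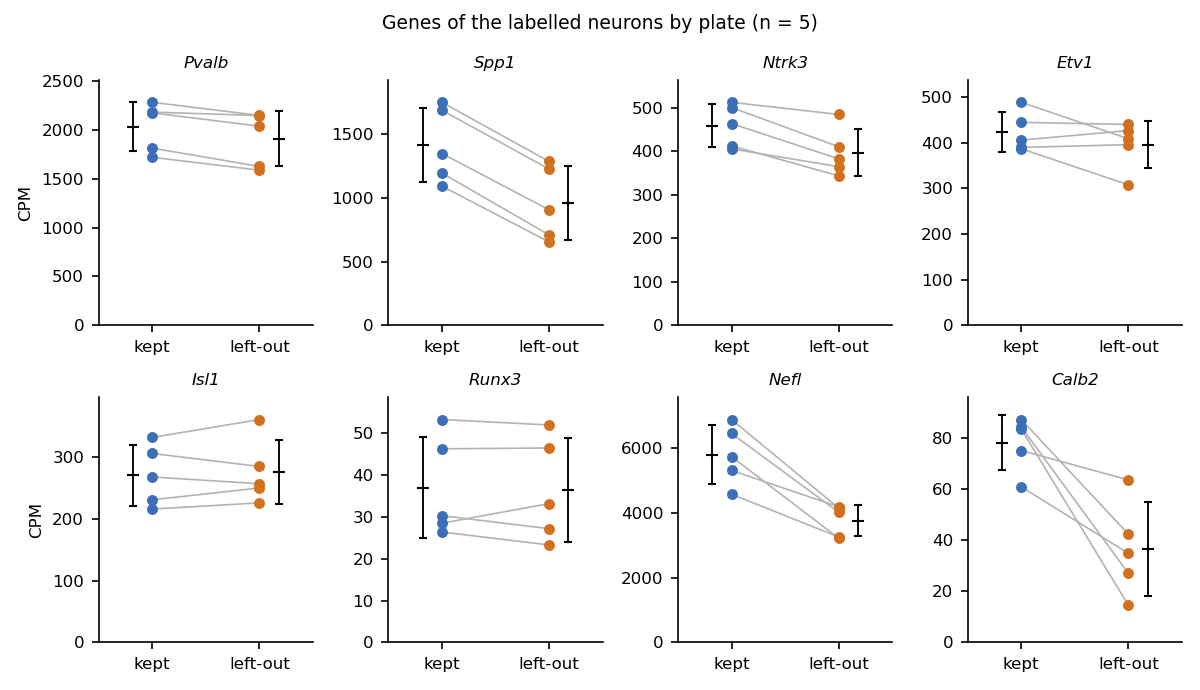
Summed CPM (vertical axes from 0) of 8 neuronal genes in the kept (blue) and left-out (orange) wells of each adult plate, with grey lines joining the sides of a plate and black marks giving mean ± SD (n = 5). Pvalb, Spp1, Ntrk3, Nefl and Calb2 are lower in left-out wells on all 5 plates, and the sides overlap in every panel but that of Nefl.

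Of 23 pan-neuronal genes 22 were tested, 3 were called higher, 11 lower and 8 not called (median −0.15). The neurofilaments, which fill large axons, were among those that fell. Nefl stood at 6456, 6887, 5313, 5738 and 4580.3 CPM in kept and at 4019, 4150.2, 4189.6, 3219.9 and 3256 CPM in left-out wells (−0.66 ± 0.06, adjusted p = 1.58e-07), Nefm fell by 0.59 and Nefh by 0.50 on the log2 scale. Map1b, a microtubule protein, fell by 0.27, a difference of 0.03 under pan-neuronal scaling. Ina (0.56 ± 0.08), another filament protein, Syt1 (0.50 ± 0.11) and Sncg (0.17 ± 0.04) were called higher. Under pan-neuronal scaling the list divided into 11 called higher and 3 lower, as that scaling centres it.

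Of 11 proprioceptor subtype genes, which divide muscle spindle from Golgi tendon organ afferents, 10 were tested, 2 were called higher, 1 lower and 7 not called (median −0.27). Calb2, the calcium buffer calretinin, was lower on every plate, at 63.5, 27.0, 34.8 and 42.3 CPM in left-out wells of replicates 1, 2, 3 and 5 and lower still on replicate 4, against 75.0, 84.2, 60.8, 83.4 and 87.1 CPM in kept wells of replicates 1 to 5 (−1.19 ± 0.20, adjusted p = 3.48e-04). In wells thinned to 7000 UMIs it was detected in 14 of 241 left-out (5.81%) and 23 of 208 kept wells (11.1%), and in unthinned wells in 38 of 242 and 50 of 208. Nxph1, neurexophilin 1, stood at 54.9, 59.5, 45.7, 42.1 and 31.7 against 19.7, 24.0, 27.2, 23.5 and 42.9 CPM, higher on 4 of 5 plates (0.76 ± 0.19, adjusted p = 0.0102), a call lost without replicate 1 or 2 and with DESeq2. Cartpt, the CART peptide, was higher on 4 of 5 plates (2.37 ± 0.36) but ran from 1.08 CPM on replicate 2 to 108 CPM on replicate 4, and DESeq2 did not call it. Itga2 was not tested. Hpse (−1.01 ± 0.40), Agpat4 (−0.76 ± 0.32), Colq (−0.47 ± 0.41), Heg1 (−0.26 ± 0.15), Pcdh17 (−0.27 ± 0.23), Pcdh8 (−0.09 ± 0.20) and Chad (0.40 ± 0.43) were not called.

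Of 12 genes of other sensory neurons only 3 were tested. Ntrk2, the BDNF receptor TrkB, which glia also carry as a truncated form, rose on every plate, from 4.14, 8.37, 8.07, 13.8 and 5.05 CPM to 76.0, 71.4, 45.1, 83.6 and 74.7 CPM (2.99 ± 0.19, adjusted p = 1.50e-09). Calca, the peptide CGRP of nociceptors, was called higher (3.51 ± 0.44), but stood at 303 CPM in left-out wells of replicate 5 and at 2.16 CPM or less on the other plates. A single well held 36.2% of its UMIs, DESeq2 did not call it, and without replicate 5 it had too few UMIs to be tested. Tac1 was not called (0.85 ± 0.36). Scn10a, a sodium channel of nociceptors, had UMIs in 9 left-out wells, all on replicates 1 and 5, and in no kept well.

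The genes with the largest rises were nearly silent in kept wells. This is a description, since a ranking by log2 difference favours genes with few kept UMIs. Those with no kept UMI passed the filter on low counts through the left-out side alone. The 15 largest, genes of the study's filters aside, were Gjc3, Lgi4, Aif1l, Zfp36l1, Sema3g, Acot1, Fam198b, Apoc1, Cd82, Slc13a3, Cdh19, Cyp2d22, C4b, Entpd2 and Oaf. Gjc3, a glial connexin, had no UMI in 208 kept wells and stood at 8.66, 9.74, 10.9, 17.0 and 10.2 CPM in left-out wells, at least 35.3-fold higher than the limit of 3 UMIs over all kept wells. Lgi4 was at least 31.1-fold, Aif1l at least 31.8-fold, Acot1, a thioesterase, at least 29.2-fold and Apoc1, an apolipoprotein encoded beside Apoe, at least 19.2-fold higher. C4b, of the complement system, was at least 12.3-fold higher. Cdh19, a cadherin of glial precursors, held 2 UMIs in kept and 125 in left-out wells, a ratio of 71.9 with a 95% interval from 19.5 to 601. Entpd2, an ATP-degrading enzyme of glia, held 1 against 70 (80.6, interval 14.0 to 3228), and Oaf 1 against 74 (85.2, interval 14.8 to 3409). These limits and intervals cover counting error only.

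Several of the 10 largest falls rested on few wells. They were Bpifc, Alox8, Kcnmb2, Phkg1, Proser3, RP24-323H7.5, Zan, Necab1, Carf and Slc13a4. Kcnmb2, an auxiliary subunit of large-conductance potassium channels, stood at 5.18, 3.35, 6.37, 4.61 and 7.57 CPM in kept and at 0, 0, 2.18, 1.26 and 0.755 CPM in left-out wells (−2.49 ± 0.55, adjusted p = 0.00384). Slc13a4, a sulfate transporter, stood at 20.7, 17.8, 9.35, 10.5 and 12.6 against 5.77, 4.33, 4.35, 1.26 and 6.04 CPM (−1.69 ± 0.29). Among the 10, these 2 did not overlap between the sides, a description since all 10 were picked by their fall. Of all genes tested, 0.836% were lower on each left-out plate than on any kept plate, and 6.08% were higher on each left-out plate than on any kept plate. Bpifc, with the largest fall (−5.42 ± 0.53), had UMIs in 10 kept wells, 1 of which held 37.2% of them. Of the UMIs in kept wells a single well held 67.8% for Alox8, 59.3% for RP24-323H7.5, 57.1% for Carf and 41.0% for Phkg1. Without replicate 3 Carf stood at −0.42 and was not called, and RP24-323H7.5 at −0.85, and without replicate 5 Phkg1 stood at −0.80, none of the 3 called. The call of Phkg1 was also lost without replicate 1, that of Proser3 without replicate 1, 4 or 5, and that of Necab1 without replicate 4.

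Left-out wells differed among themselves by their Apoe. In the 224 wells over the Apoe limit the median well held 7665 CPM of Apoe, 1707 CPM of Fabp7 and 235 CPM of Gpm6b. In the 18 wells under it the medians were 409.9, 99.0 and 6.31 CPM, beside 165, 26.1 and 0 CPM in kept wells. These 18 wells, 7 and 8 of them on replicates 1 and 2 and 0 on replicate 5, were also the shallowest, with a median of 19998 UMIs against 29744 for wells over the limit and 36926 for kept wells. Their satellite glia genes other than Apoe took a median of 0.410% of UMIs, against 0.996% in wells over the limit and 0.375% in kept wells. Their pan-neuronal genes took 4.18%, against 3.41% in wells over the limit and 4.27% in kept wells. Pvalb had UMIs in every well of all these sets.

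Among the left-out wells of a plate, glial transcripts went together in varying degree. Spearman's rho between the CPM of Apoe and Fabp7 ran from 0.51 to 0.92 over the 5 plates (40 to 69 wells each), and between Apoe and Kcnj10 from 0.28 to 0.54. Between Apoe and Pvalb it ran from −0.23 to 0.05. These values are descriptions, since all wells of a plate share a library and each pair shares the depth of its wells.

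Kept wells also held transcripts of glial genes. Apoe had a UMI in 206 of the 208 kept wells, with a median of 165 CPM, and Fabp7 in 129. At 7000 UMIs per well Fabp7 was detected in 25.5% of kept and 95.0% of left-out wells, Kcnj10 in 0.962% and 27.8%, and Sox10 in 1.44% and 14.1%. These counts leave out 1 shallower left-out well. Unthinned, the shares were 62.0% and 97.5% for Fabp7. As a share of their mean level in left-out wells, members of the glial lists differed widely in kept wells. Apoe stood at 4.72%, Gpm6b at 4.29%, Sparc at 4.09%, Fabp7 at 3.51%, Sox10 at 2.89% and Kcnj10 at 2.52%. Higher were Cd9 at 11.6%, Mbp and Vim at 14.0% each, Cnp at 21.1%, Dbi at 28.2% and Glul at 34.0%. Cst3 stood at 72.5% and Aldoc at 77.8%. These genes are examples and not the whole lists. Whether the UMIs of these genes in kept wells came from free RNA, attached glia, other wells of the plate or the neuron itself was not tested.

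The comparison was also made at p12, to ask whether the difference between left-out and kept wells differs between the stages. Each stage had its own plates, and the study digested adult ganglia for longer than p12 ganglia. Age thus cannot be told apart from plates or digestion. At p12 216 wells were left out and 154 kept on 4 plates, and the left-out wells were deeper than the kept ones (median 39778 against 24462 UMIs), the reverse of the adult. Fabp7 stood at 102, 70.6, 38.3 and 58.6 CPM in kept and at 1482, 1548, 1696 and 1754 CPM in left-out wells at p12, and its difference between the sides was not called as different from the adult (−0.27 ± 0.26). Kcnj10 (−0.86 ± 0.79) was not called either. In edgeR's test of the difference between the stages, 32 of 12285 genes were called (0.260%), 28 with a lower and 4 with a higher log2 difference at p12. Among the 5 strongest of the former were Col23a1, Pcgf2, Marcksl1 and Osbpl7. Col23a1, a transmembrane collagen, held 2 UMIs in adult kept wells and 11.9 CPM in adult left-out wells, but stood at 5.12, 2.94, 4.72 and 3.71 against 13.2, 13.2, 2.82 and 6.24 CPM at p12 (−4.48 ± 0.79, adjusted p = 0.00614). Marcksl1, a cytoskeletal protein of growing cells, was nearly absent from adult kept wells (0.327 CPM) and abundant in p12 ones (46.0 CPM), with 7.86 and 82.7 CPM in left-out wells (−3.44 ± 0.60).

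Several abundant genes that rose in adult left-out wells were also present in p12 kept wells, and those given here were named after their values were seen. Ptn stood at 263 CPM in adult and 606 CPM in p12 kept wells, and at 749 and 837 CPM in left-out wells (−1.03 ± 0.10, adjusted p = 2.26e-06). Ndrg2 stood at 42.3 and 119 CPM in kept and at 179 and 187 CPM in left-out wells (−1.47 ± 0.15). Cd63, a tetraspanin of endosomes, stood at 27.5 and 79.9 against 236 and 268 CPM (−1.52 ± 0.18). Cdkn1a, the cell cycle inhibitor p21, stood at 3.29 and 30.4 against 37.5 and 64.5 CPM (−2.42 ± 0.36). As a ratio, each of the 4 differed more between the stages in kept than in left-out wells. Gpm6b also had a smaller difference at p12 (−1.66), a call lost without p12 replicate 1. Pcgf2 and Osbpl7 were higher in left-out wells on only 1 of 4 p12 plates, DESeq2 called neither, Osbpl7 stood at −1.14 and was not called without p12 replicate 1, and Pcgf2 ran from 6.67 to 220.0 CPM among p12 kept wells. The 4 genes with the higher difference at p12 were Bpifc, Gm37583, Stxbp2 and Gm26710, each called lower in adult left-out wells. Bpifc held only 6 and 31 UMIs in all p12 kept and left-out wells, on 1 plate each. Without p12 replicate 2 Bpifc stood at 2.32 and was not called, and the calls of Gm37583 and Stxbp2 were each lost without adult replicate 1 or p12 replicate 1 or 4, among others, while Gm26710 kept its call in every such fit.

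**Figure D5:**
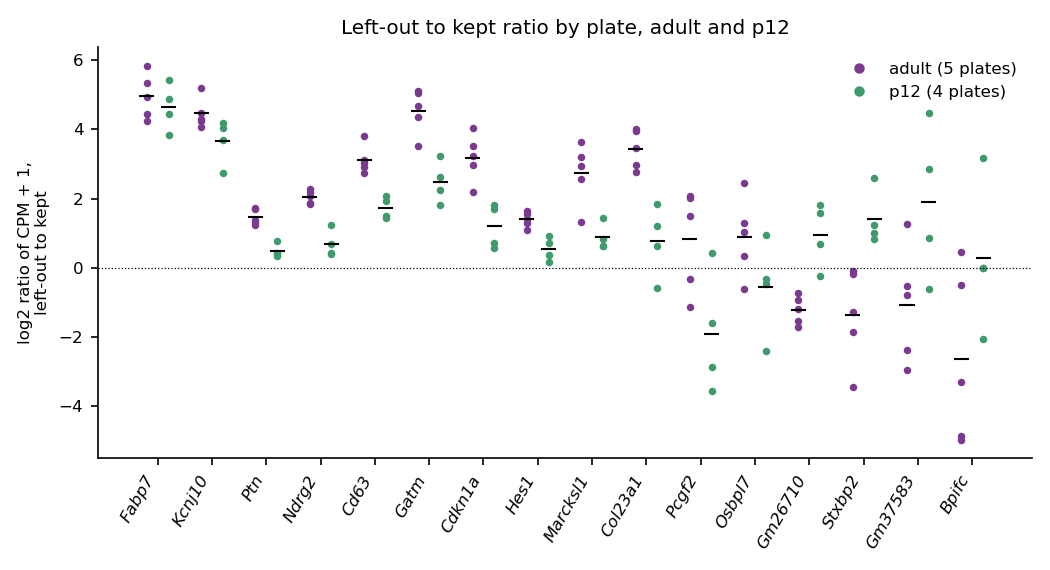
The log2 ratio of left-out to kept CPM + 1 (vertical axis) for 16 genes (horizontal axis), 1 point per plate, adult in purple (5 plates) and p12 in green (4 plates), with black bars at the means. Fabp7 and Kcnj10 overlap between the stages, while the 5 adult plates lie above all 4 p12 plates for Ptn, Ndrg2, Cd63, Gatm, Cdkn1a, Hes1 and Col23a1.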

How the data were processed

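Single cells were sorted into 96-well plates from mice of 4 stages, and 3′ transcripts were read as Plate-seq libraries. Per the labels the authors aligned reads with STAR to GRCm38 (mm10), and the deposited values are UMI counts per gene and well, not normalized, with 50508 genes listed, of which 19850 had no UMI in any well. The wells the authors kept were taken from their deposited annotation, and a well with at least 2000 genes above 0 that was not in it was called left-out. The limit on Apoe was read from the deposited counts.

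UMIs were summed over the wells of a side and plate, which gave 792516 to 2387288 UMIs for the kept and 924288 to 2650272 UMIs for the left-out side, and single wells held 7161 to 128341 and 4954 to 114620 UMIs. Genes passing edgeR's filterByExpr were tested with its quasi-likelihood F-test (edgeR 4.0.16, R 4.3.3), TMM factors, and plate and side as terms, since both sides come from the same plate. Calls used a Benjamini-Hochberg adjusted p under 0.05. The stages were compared by an interaction term. CPM were computed from the summed UMIs, and errors are SE of the fit or SD over plates. Single values were compared by an exact sign-flip permutation test. In data simulated from the adult sums, the test recovered 100% of genes changed by 1 or 2 log2 units among 7950 genes, with 3.38% of calls false. For the stage comparison it recovered 79% and 99% among 8050 genes, with 3.78% false. In both simulations all genes had the same dispersion, and 200 genes were changed, as many up as down. The real changes were lopsided and some rested on single wells or plates, so these rates need not hold for the calls given here.

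Alternatives were DESeq2 1.42.0, its size factors, library totals, scaling to the pan-neuronal list, no filter on low counts, no plate block, wells thinned to 7000 UMIs, wells with at least 4000 genes, kept wells of the numbered clusters only, subsets of plates, and leaving out each plate. The members and the gene lists were chosen with earlier results of these data known. Named were Apoe, Mbp and Fabp7, the top 15 called genes by rise and the top 10 by fall. Gm, Rik and LOC names and the genes of the study's filters were skipped there. Also named were, of each list, the 4 members with the highest mean CPM in left-out wells and those called against most of their list. All proprioceptor and subtype genes and the 5 largest interactions in each direction were named as well. Further list members, among them Sox10, Mal, Cnp, Egr2, Erbb3, Dhh, Mdk, Zfp36, Gja1, Slc1a3, Aldoc and the laminins, and Kcnj10, Gpm6b, Ptn, Hes1 and Ina, were named after their values were seen. Some genes that the rule would name are not reported here. Positions are of GENCODE vM21 and promoters of RefSeq.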

Additional observations from a re-analysis of the deposited data

Results flagged for a closer look

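Of 169 groups of 5 plate values examined, 11 had a plate that stood apart from the other 4 by more than Dixon's 95% limit (0.71 of the range), where chance gives about 1 in 20. As log2 ratios of left-out to kept CPM + 1, these were Calca on replicate 5 (4.23), Hpse on replicate 2 (−3.39), Mt3 on replicate 5 (0.05), RP24-323H7.5 on replicate 3 (−3.52) and S100b on replicate 2 (−0.17). As shares of all UMIs, these were myelinating Schwann cell genes in left-out wells of replicate 3 (0.0696%), subtype genes in kept wells of replicate 2 (0.0320%), genes of other sensory neurons on replicate 5 in kept (0.0167%) and left-out wells (0.0516%), and matrix genes in kept wells of replicate 2 (0.0263%). The left-out minus kept difference in UMIs of the satellite glia list without Apoe was 229 per well on replicate 5 and 73.9 to 112 on the other plates. Replicate 5 thus stood apart for this difference and for genes of other sensory neurons on both sides.

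Of the genes whose left-out minus kept difference changed between the stages by edgeR's interaction term, as p12 minus adult, Col23a1 stood at −4.48, Pcgf2 at −3.80, Marcksl1 at −3.44 and Osbpl7 at −2.64. Genes of the same kind named after their values were seen were Cdkn1a (−2.42), Gatm (−2.22), Gpm6b (−1.66), Cd63 (−1.52), Ndrg2 (−1.47), Ptn (−1.03), Hes1 (−0.90) and Ina (−0.60), each with a smaller difference at p12. Of these calls that of Gatm was lost without p12 replicate 1, as was that of Gpm6b. The call of Ina was lost without adult replicate 1, 2 or 4 or p12 replicate 3 or 4, and that of Osbpl7 without adult replicate 1, 2 or 3 or p12 replicate 1 or 4. Bpifc stood at 6.24, Gm37583 at 3.83, Stxbp2 at 2.72 and Gm26710 at 2.10.

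The 30 adult wells with under 2000 genes, used in no comparison, held a median of 886 UMIs. Apoe took 542 of their UMIs, or 13786 CPM of the sum, against 294 CPM in kept and 7376 CPM in left-out wells summed in the same way, and 27 of the 30 had an Apoe UMI. Taken per well the order turned, with a median of 4973 CPM of Apoe in these wells against 7235 CPM in left-out wells.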

How the results depend on the processing

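Against 1020 genes called higher and 738 lower in adult left-out wells, DESeq2 called 590 and 244, scaling to the pan-neuronal list 3367 and 90, and wells thinned to 7000 UMIs 245 and 108. Without the replicate block, which pairs the sides of a plate, 451 and 40 were called. Against only the kept wells of the numbered clusters 1147 and 916 were called. Library totals gave 466 lower, replicates 1 and 2 alone 361 lower and replicates 3 to 5 alone 220 lower. Of the 694 genes called higher in replicates 1 and 2 and the 683 in replicates 3 to 5, 442 were shared (63.7% and 64.7%), and of the 361 and 220 called lower, 107 (29.6% and 48.6%). Leaving out 1 plate gave 797 to 977 higher and 385 to 771 lower, with 435 lower without replicate 1, 474 without replicate 2 and 385 without replicate 4. Against 4 higher and 28 lower in the stage comparison, DESeq2 called 2 and 18 and no filter on low counts 29 and 66, and leaving out 1 plate gave 1 (without adult replicate 1) to 11 (without adult replicate 5) higher and 20 to 36 lower. Scaling to the pan-neuronal list turned the sign of Cd59a (0.29), Clu (0.28), Cntn1 (0.08), Isl1 (0.28), Map1b (0.03), Mt3 (0.13), Ntrk3 (0.04), Pvalb (0.16) and S100b (0.15). Carf stood at 0.07 in replicates 1 and 2 alone, and Hspb1 at 0.70 against kept wells of the numbered clusters. The cause was not tested.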

Other observations

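Some genes of the left-out wells differed between replicates 1 and 2 and replicates 3 to 5, which was not tested. Ednrb, an endothelin receptor of glia, stood at 382 and 438 CPM in left-out wells of replicates 1 and 2 and at 59.3, 84.3 and 72.1 CPM in those of replicates 3 to 5. Gja1 stood at 90.5 and 66.0 against 14.7, 20.7 and 20.0 CPM, and Jag1 at 59.7 and 97.4 against 9.24, 13.2 and 11.7 CPM. Other genes of left-out wells did not divide in this way, such as Sox10 at 33.7 and 29.2 against 23.9, 30.8 and 30.9 CPM. Pou4f1, a transcription factor of sensory neurons, divided likewise in kept wells, at 296 and 293 against 69.7, 70.4 and 66.9 CPM, so the difference between the sets of plates was not limited to glial genes.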
